A study of Mus musculus with 24 samples.

Results

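The 10 white adipocyte genes Adipoq, Fabp4, Lipe, Pparg, Cebpa, Lep, Retn, Cfd, Pnpla2 and Acvr1c were followed in quadriceps muscle of 2 mouse strains, C57BL/6 (called B6) and MRL/MpJ (called MRL). They were taken by symbol from the deposited expression matrix, which held all 10 among its 14159 genes with a symbol. Female mice 6 to 8 weeks old, as given in the study's methods, were left uninjured, or lost a volume of quadriceps muscle (volumetric muscle loss) and then received saline in the defect as the control injury, or powder of polyethylene (PE), or decellularized matrix (ECM). Injured muscle was collected at day 21, and each of the 8 groups of strain and treatment had 3 libraries of polyadenylated RNA from whole muscle, numbered 1 to 3 here as in the labels. The labels do not tie a library to an animal, so p-values measure the spread between these libraries. Both strains are inbred, and MRL is known for closing ear wounds with little scar. The comparisons ask whether the strains and the implants differ in the fat program that the study looked for in injured muscle.

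White adipocytes store triglyceride in a single large droplet and act as an endocrine tissue. Their identity is set by the nuclear receptor PPARγ (Pparg) and the transcription factor C/EBPα (Cebpa), which maintain each other and switch on genes of lipid handling and of secreted adipokines. In skeletal muscle, adipocytes arise between the fibers from fibro-adipogenic progenitors, and they also lie in the fat around the muscle. In bulk RNA, fewer adipocytes and less adipocyte RNA per cell cannot be told apart.

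Sequences upstream of Adipoq, Lep and Cfd are shown because the level of Lep and Cfd relative to Adipoq differed between the strains. Each line holds the 120 bases before the start of the canonical transcript in GENCODE vM39 on GRCm39, at chr16:22965166-22965285, chr6:29060096-29060215 and chr10:79726548-79726667, all on the plus strand. GRCm39 is a C57BL/6 reference, so these sequences cannot show a difference between the strains. Capitals mark matches to the 6 motifs searched on both strands.
Adipoq: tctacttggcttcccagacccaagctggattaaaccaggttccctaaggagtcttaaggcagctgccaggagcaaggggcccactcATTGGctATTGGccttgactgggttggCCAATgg
Lep: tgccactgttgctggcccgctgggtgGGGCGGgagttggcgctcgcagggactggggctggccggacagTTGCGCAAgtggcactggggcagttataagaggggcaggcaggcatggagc
Cfd: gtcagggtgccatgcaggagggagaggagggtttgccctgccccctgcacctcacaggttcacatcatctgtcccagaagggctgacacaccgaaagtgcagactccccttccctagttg

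The motifs were searched in the 250 bases before the start of 21751 genes. TTGCGCAA, a palindrome of the kind C/EBP factors bind, stood 51 to 44 bases before the start of Lep and in 0.166% of all promoters. CCAAT occurred 3 times in the Adipoq promoter, once in that of Pparg, and in 36.5% of all promoters. GGGCGG was held by Lipe, Pparg, Lep, Pnpla2 and Acvr1c and by 36.3% of all promoters, and TATAAA by Cebpa and 11.9%. CACGTG (6.26% of all promoters) and a direct repeat of AGGTCA with 1 base between, the kind PPARγ and RXR bind (0.0368%), matched 0 of the 10 promoters. The Cfd promoter matched none of the 6 motifs.

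Values are log2 CPM, where CPM scales the counts of a library to a common total, as deposited with a prior count of 2. The mean library size recovered from that prior was 25149678 reads, and all 10 genes lay above the level of 3 counts (-2.33 log2 CPM) in every library. Differences between groups were tested with limma over all 14159 genes, and a gene was called at a Benjamini-Hochberg adjusted p under 0.05. The libraries of PE-treated MRL mice did not resemble each other. Library 2 had 5186 CPM summed over 12 macrophage markers and 10808 CPM over 6 markers of lipid-associated macrophages (Trem2, Gpnmb, Cd9, Spp1, Fabp5 and Lgals3), whereas libraries 1 and 3 had 292 and 293 CPM and 52.4 and 152 CPM. In PE-treated B6 mice these sums ran from 1742 to 6134 CPM and from 3286 to 9940 CPM, and in the 6 uninjured libraries from 97.8 to 222 CPM and from 73.0 to 116 CPM. In the lipid-associated markers, MRL PE libraries 1 and 3 were thus near uninjured muscle and far below the other 4 PE libraries. How much of the implant site the muscle of each library held was not tested. Muscle fibre markers summed to 39778 CPM in library 2 of PE-treated MRL mice, the lowest of the 24 libraries, and to 66901 to 256211 CPM in the others. The main results that rest on PE-treated MRL mice are therefore also given without library 2 or without libraries 1 and 3.

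Acvr1c aside, the members fall into transcription factors, secreted products and proteins of lipid storage and release, and they are described in that order. Pparg (chr6:115337675-115468268, plus strand) encodes the nuclear receptor that drives adipocyte differentiation. Its levels in libraries 1 to 3 were 3.09, 4.88 and 3.88 in uninjured, 3.00, 3.00 and 2.27 in saline-treated, 1.00, 1.97 and 3.82 in ECM-treated and 3.24, 3.31 and 3.12 in PE-treated B6 mice. In MRL mice they were 1.90, 4.53 and 2.34 in uninjured, 3.94, 2.24 and 2.50 in saline-treated, 3.53, 1.61 and 1.42 in ECM-treated and 5.40, 4.11 and 5.18 in PE-treated muscle (log2 CPM). All 3 PE-treated MRL libraries exceeded all 3 PE-treated B6 libraries, as for 9.89% of all genes. Library 2 of the uninjured mice was the highest of its group in both strains. Cebpa (chr7:34818718-34821353, plus strand), a gene of 1 exon, encodes the partner factor of PPARγ and is also used by myeloid cells. Its levels were 5.82, 8.59 and 6.44 in uninjured, 6.08, 5.44 and 4.22 in saline-treated, 4.56, 4.58 and 7.45 in ECM-treated and 6.14, 6.92 and 5.66 in PE-treated B6 mice. MRL mice had 4.28, 7.31 and 5.70 in uninjured, 6.85, 5.12 and 5.13 in saline-treated, 6.48, 4.97 and 4.57 in ECM-treated and 8.71, 7.13 and 8.18 in PE-treated muscle (log2 CPM). For both genes, all 3 PE-treated MRL libraries exceeded all 3 saline-treated MRL libraries, as for 10.8% of all genes.

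Among the secreted products, Adipoq (chr16:22964106-22976810, plus strand) encodes adiponectin, a hormone made almost only by adipocytes. Its levels were 6.90, 8.76 and 7.30 in uninjured, 6.58, 6.36 and 4.80 in saline-treated, 3.67, 4.24 and 7.96 in ECM-treated and 3.94, 5.24 and 4.85 in PE-treated B6 mice. MRL mice had 4.2, 8.05 and 6.26 in uninjured, 7.42, 5.01 and 5.72 in saline-treated, 7.69, 5.32 and 4.88 in ECM-treated and 9.32, 5.49 and 8.49 in PE-treated muscle (log2 CPM). The 24 libraries thus spanned 5.65 on the log2 scale, from library 1 of ECM-treated B6 mice to library 1 of PE-treated MRL mice. Lep (chr6:29060216-29073877, plus strand) encodes leptin, the satiety hormone that reports fat mass. B6 mice had 4.43, 5.40 and 3.88 in uninjured, 3.58, 4.35 and 0.81 in saline-treated, 2.55, 1.76 and 5.06 in ECM-treated and 0.68, 2.14 and 1.56 in PE-treated muscle. MRL mice had 2.47, 6.46 and 4.50 in uninjured, 5.61, 3.25 and 4.27 in saline-treated, 7.18, 3.44 and 2.78 in ECM-treated and 7.74, 3.87 and 7.23 in PE-treated muscle (log2 CPM). Lep spanned 7.06 on the log2 scale, a 133-fold range, and the 3 PE-treated B6 libraries were among its lowest.

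Retn (chr8:3705324-3710689, plus strand) encodes resistin, which in mice comes from white adipocytes. Its levels were 5.59, 6.46 and 5.19 in uninjured, 4.77, 5.03 and 3.12 in saline-treated, 2.16, 3.38 and 5.98 in ECM-treated and 2.44, 3.97 and 3.06 in PE-treated B6 mice. MRL mice had 2.81, 6.55 and 4.46 in uninjured, 4.96, 2.87 and 3.77 in saline-treated, 5.60, 3.67 and 3.35 in ECM-treated and 7.36, 3.36 and 6.45 in PE-treated muscle (log2 CPM). Library 2 of PE-treated MRL mice lay within the range of PE-treated B6 mice, and libraries 1 and 3 lay above it. Cfd (chr10:79726668-79728496, plus strand) encodes adipsin, the complement factor D that adipocytes secrete. Its levels were 7.97, 9.83 and 8.44 in uninjured, 7.93, 7.42 and 6.48 in saline-treated, 4.78, 5.80 and 8.92 in ECM-treated and 5.18, 6.39 and 6.33 in PE-treated B6 mice. MRL mice had 4.57, 8.43 and 6.54 in uninjured, 8.21, 5.66 and 5.83 in saline-treated, 7.26, 6.09 and 5.63 in ECM-treated and 9.77, 6.18 and 8.96 in PE-treated muscle (log2 CPM). Its highest library was an uninjured B6 one, unlike the other 9 members, which were all highest in library 1 of PE-treated MRL mice.

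Fabp4 (chr3:10268785-10273737, minus strand) encodes the fatty acid carrier of the adipocyte cytosol, which macrophages and capillary endothelium also make. Its levels were 8.63, 10.90 and 9.49 in uninjured, 7.92, 7.89 and 7.56 in saline-treated, 6.91, 7.62 and 9.87 in ECM-treated and 6.77, 7.64 and 7.52 in PE-treated B6 mice. MRL mice had 7.35, 10.23 and 8.35 in uninjured, 9.05, 8.21 and 7.98 in saline-treated, 9.23, 7.64 and 7.87 in ECM-treated and 11.10, 7.87 and 10.60 in PE-treated muscle (log2 CPM). The uninjured B6 libraries lay above all saline-treated B6 libraries, as for 7.34% of all genes. Pnpla2 (chr7:141034404-141040656, plus strand) encodes ATGL, the lipase that takes the first fatty acid off triglyceride, in muscle fibers as well as in fat. Its levels were 8.12, 9.97 and 8.75 in uninjured, 7.89, 7.57 and 7.49 in saline-treated, 7.14, 7.04 and 8.67 in ECM-treated and 6.70, 6.62 and 6.86 in PE-treated B6 mice. MRL mice had 7.92, 8.99 and 7.84 in uninjured, 8.24, 8.35 and 8.01 in saline-treated, 8.14, 7.84 and 6.83 in ECM-treated and 10.05, 6.85 and 9.69 in PE-treated muscle (log2 CPM). Pnpla2 had the smallest span of the members, 3.43 on the log2 scale. Its 3 PE-treated B6 libraries lay below all saline-treated ones, and 29.7% of all genes did not overlap there in either direction.

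Lipe (chr7:25078880-25098135, minus strand) encodes hormone-sensitive lipase, the next enzyme of fat breakdown. Its levels were 6.19, 8.81 and 6.91 in uninjured, 5.76, 5.75 and 4.54 in saline-treated, 3.74, 4.45 and 7.55 in ECM-treated and 3.51, 5.19 and 4.51 in PE-treated B6 mice. MRL mice had 4.57, 8.07 and 6.23 in uninjured, 7.16, 5.63 and 5.48 in saline-treated, 7.11, 5.36 and 4.99 in ECM-treated and 9.12, 5.30 and 8.70 in PE-treated muscle (log2 CPM). The lowest library was the first of PE-treated B6 mice. Acvr1c (chr2:58157465-58247925, minus strand) encodes ALK7, a receptor for TGF-β family ligands that restrains fat breakdown in adipocytes. Its levels were 3.05, 5.44 and 4.19 in uninjured, 3.48, 2.40 and 1.10 in saline-treated, 0.31, 0.98 and 4.56 in ECM-treated and 0.76, 1.81 and 1.47 in PE-treated B6 mice. MRL mice had 1.00, 4.50 and 2.76 in uninjured, 3.94, 2.66 and 2.07 in saline-treated, 3.45, 1.71 and 1.20 in ECM-treated and 5.79, 2.20 and 5.13 in PE-treated muscle (log2 CPM). In every treatment except PE, the strains overlapped for Acvr1c. In PE all MRL libraries lay above all B6 libraries, as for 9.89% of all genes.

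**Figure D1:**
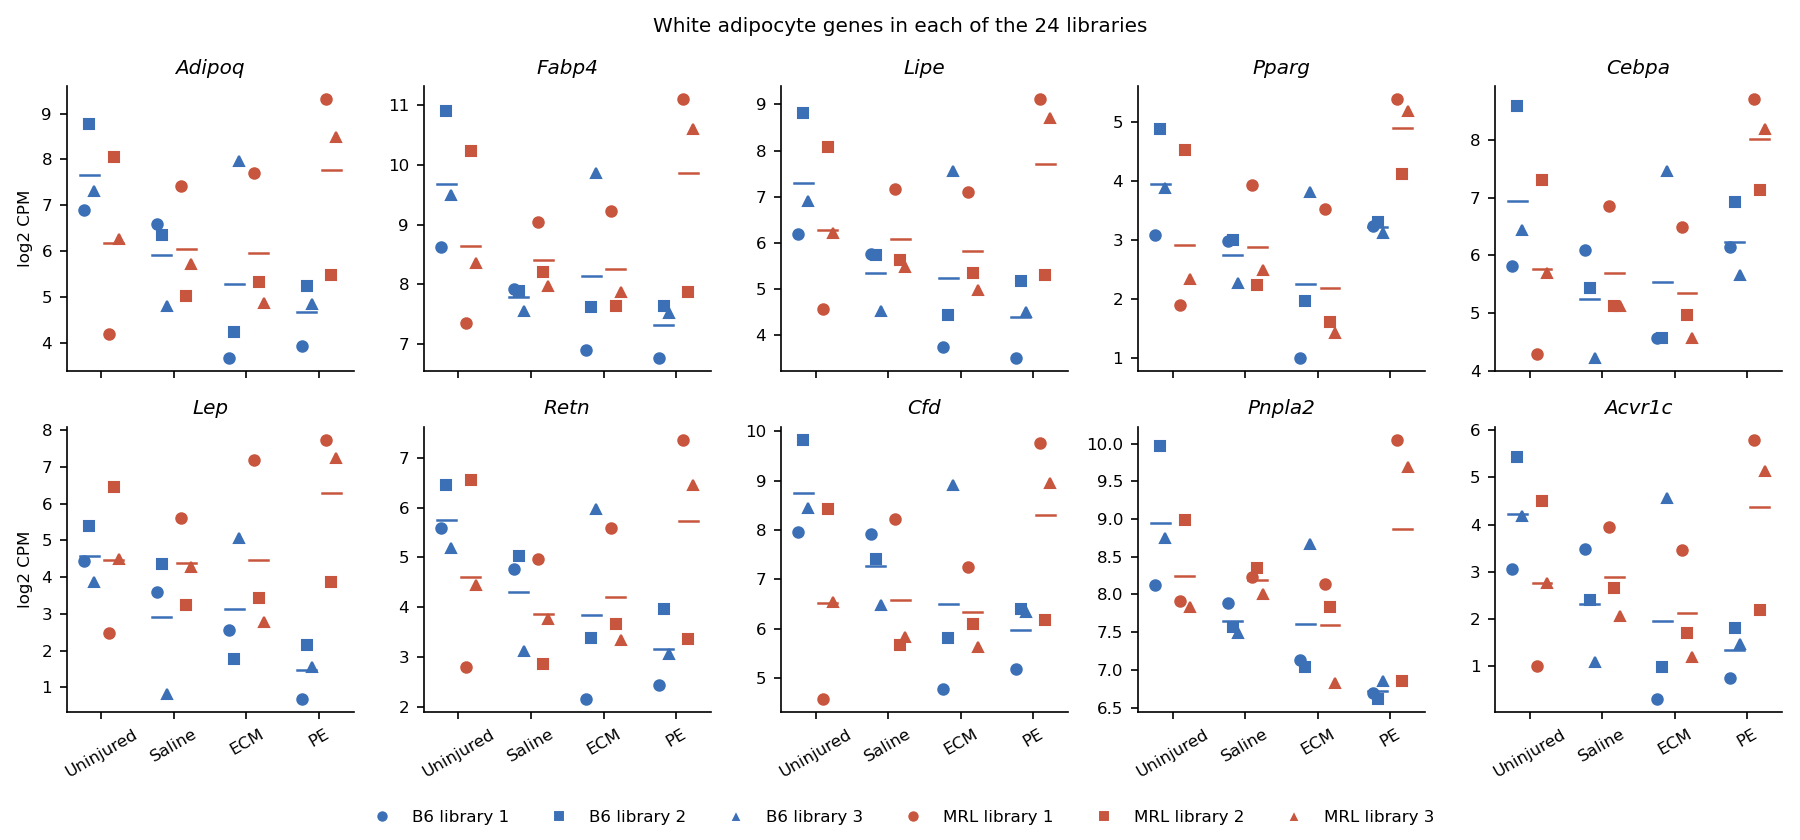
Level of each gene (log2 CPM, own axis per gene) in each of the 24 libraries by treatment, where blue is B6, red is MRL, marker shape is the library number and lines are group means. Within a group the same library tends to be high or low for all 10 genes, and libraries 1 and 3 of PE-treated MRL mice are the highest of the PE libraries.

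Libraries of 1 group differed more in these genes than in most others. The standard deviation within groups (pooled, 16 degrees of freedom) was 1.56 for Adipoq and 1.70 for Lep, and ranged down to 0.85 for Pnpla2. The median over all genes was 0.40, and the members' values lay between the percentiles 86.4 and 98.5. The spread was shared. Across the 24 libraries, Adipoq correlated with Lipe (Pearson r = 0.977, Spearman rho = 0.977), Acvr1c (r = 0.976, rho = 0.973) and Retn (r = 0.976, rho = 0.963), then with Cfd (0.953 and 0.924), Fabp4 (0.951 and 0.958), Lep (0.897 and 0.926), Pnpla2 (0.858 and 0.808), Cebpa (0.834 and 0.811) and Pparg (0.833 and 0.783). The permutation p from 100000 resamples was 1e-05, the smallest they can give, for r with 7 members and 2e-05 for Cebpa and Pparg, and for rho it was 1e-05 with all 9. Adjusted over 14158 genes, p was at most 0.00078 for r and 0.00071 for rho, and 6.99% of genes passed for r. The permutations shuffled all 24 libraries regardless of group, so differences between groups enter these p-values. Without the 2 libraries farthest from the Adipoq median, r was between 0.760 and 0.969. After group means were removed, r was between 0.800 and 0.979, so libraries of the same group carried the relation too. All points share the library's muscle content and scaling.

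The genes outside the members that followed Adipoq most closely, leaving out symbols of predicted genes and clones, were Klb (r = 0.988), the co-receptor for FGF21, Cidec (0.986), a lipid droplet protein, Aoc3 (0.984), Lgals12 (0.981), Gnai1 (0.980), Smoc1 (0.979), Tshr (0.976) and Cdo1 (0.975), over the same 24 libraries. Their rho lay between 0.974 and 0.992. They were picked by their r over these same libraries, so a p-value for them would carry no further information and none is given.

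In PE-treated muscle, all 10 genes had higher means in MRL than in B6 mice, with a median difference of 2.56 on the log2 scale against -0.02 over all genes. Lep alone was called, 28.2-fold higher, with a difference of 4.82 (SE 1.27, adjusted p = 0.0404). It was called among 227 genes called higher, 1.6% of those tested. The differences of the others were 3.30 (SE 1.08, adjusted p = 0.1) for Lipe, 3.09 (SE 1.16, adjusted p = 0.149) for Adipoq, 3.03 (SE 1.11, adjusted p = 0.138) for Acvr1c and 2.57 (SE 1.07, adjusted p = 0.198) for Retn. Fabp4 differed by 2.55 (SE 0.85, adjusted p = 0.104), Cfd by 2.34 (SE 1.08, adjusted p = 0.246), Pnpla2 by 2.14 (SE 0.64, adjusted p = 0.0727), Cebpa by 1.77 (SE 0.88, adjusted p = 0.285) and Pparg by 1.67 (SE 0.74, adjusted p = 0.226). From its own differential test, the study reported Pparg as increased in PE-treated MRL mice, among markers of M2-like macrophages. The limma fit to log2 CPM used here did not call Pparg. For 9 of the 10, all but Cebpa, the unadjusted limma p was under 0.05 with MRL higher, as for 9.57% of all genes. The 3 MRL libraries lay above the 3 B6 libraries for 7 members (all but Retn, Cfd and Pnpla2) and for 9.89% of all genes. All 10 members were chosen with earlier results of these data known, so their direction is not independent evidence. Adipoq, Cebpa, Lipe, Pparg and Fabp4 are also among the adipogenic genes that the study picked on these samples. The labels do not pair libraries across the strains. Residuals of PE libraries with the same number nevertheless correlated at 0.105, 0.532 and 0.439, above the limit of 0.1 set here, for a reason that was not tested. With the number as a block in limma, 0 members were called (Lep, adjusted p = 0.061).

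The count depended on which PE library was left out. Without library 2, 8 members were called higher (all but Pparg and Cebpa), among 10.6% of all genes, and Adipoq differed by 4.23 (SE 1.19, adjusted p = 0.014), Pnpla2 by 3.15 (SE 0.50, adjusted p = 0.000203) and Lep by 6.03 (SE 1.30, adjusted p = 0.00253). Without any 1 of the other 5 PE libraries, 0 members were called and the adjusted p of Lep was between 0.0807 and 0.244. With only library 2 left in the group, assumed to vary like the other groups, the median difference of the members was 0.83. With 1 library the spread of that group cannot be measured. For the members, library 2 lay closer to the mean of PE-treated B6 mice than libraries 1 and 3 did. Its Adipoq level was 0.82 above the B6 mean and 3.41 below the mean of libraries 1 and 3. For Lep it was 2.41 above and 3.62 below. With limma's weights, which gave library 2 the lowest weight of the 24 (0.0939), all 10 members were called, among 21.5% of all genes called higher.

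**Figure D2:**
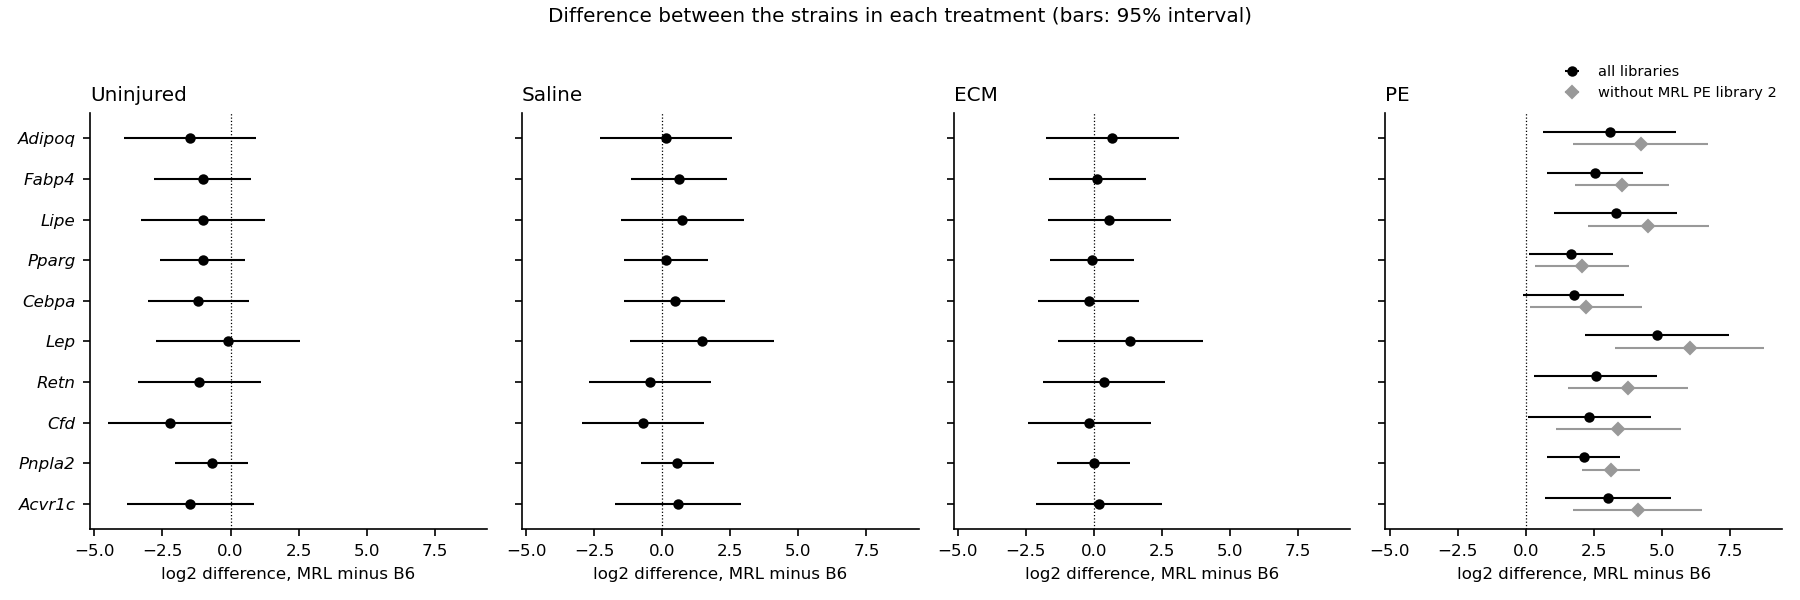
Difference between MRL and B6 mice in log2 CPM for each gene in each treatment, with its 95% interval from limma, where grey diamonds leave out library 2 of PE-treated MRL mice. The PE points all lie above 0, at 1.67 to 4.82 with all libraries and at 2.07 to 6.03 without library 2.

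Macrophage marker levels differed among these 6 libraries as well. The 2 libraries with the highest Adipoq had the lowest sums of macrophage and lipid-associated macrophage markers of the 6, and library 2 had the highest lipid-associated sum. Over the lists, 12 of 12 macrophage markers and 6 of 6 lipid-associated ones had lower means in MRL mice, with C1qb (-2.10, adjusted p = 0.0278) and Fabp5 (-2.89, adjusted p = 0.00394) called. All 4 globin genes had higher means and Hba-a1 (5.44), Hbb-bs (4.12) and Hbb-bt (3.63) were called, although near-identical globin copies may share reads. Their summed level was 4084, 664 and 1402 CPM in MRL libraries 1 to 3 and 69.5 to 116 CPM in B6 libraries. Without library 2, 11 of 12 macrophage and 6 of 6 lipid-associated markers were called lower (Fabp5, -3.62) and the same 3 globin genes higher (Hba-a1, 6.15). That fit called 3490 of 14159 genes in either direction. Without libraries 1 and 3, 9 of 12 macrophage and 5 of 6 lipid-associated markers had higher means in MRL mice, and Hba-a1 differed by 4.01. The part of macrophage and red cell RNA in the adipocyte differences was not tested. Of 12 muscle fibre markers 2 had higher means in MRL mice, of 9 endothelial markers 7, and of 3 B cell markers 2, with 0 called in each. Without library 2 the muscle count turned to 11 of 12, with 0 called.

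**Figure D3:**
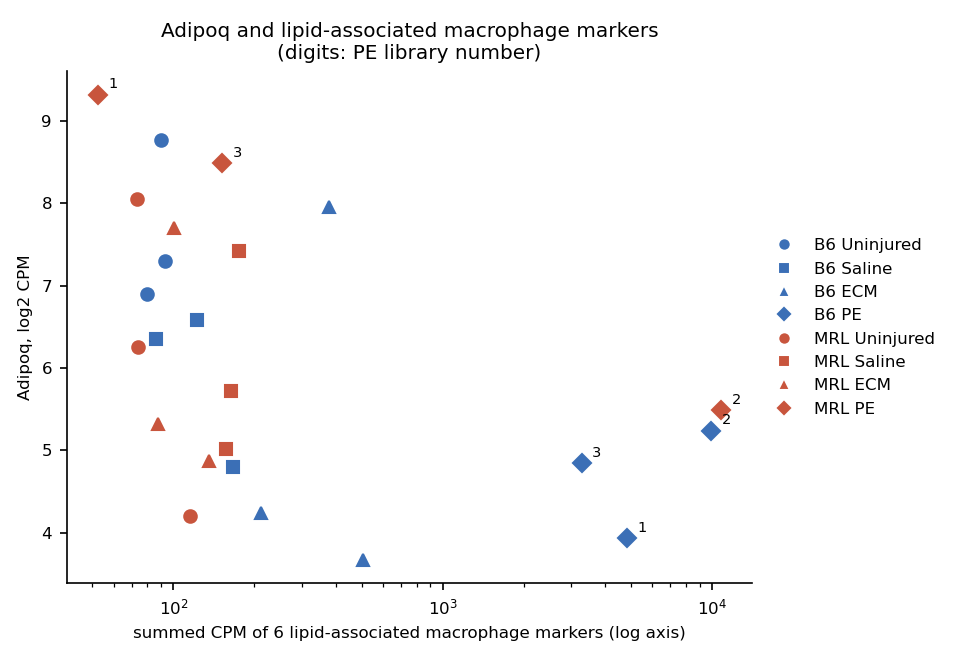
Adipoq level (log2 CPM) against the summed CPM of 6 lipid-associated macrophage markers (log axis) in the 24 libraries, with digits giving the number of PE libraries. Library 2 of PE-treated MRL mice (10808 CPM) sits beside the PE-treated B6 libraries (3286 to 9940 CPM), while its MRL partners 1 and 3 (52.4 and 152 CPM) sit at the upper left.

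Other genes of white fat had higher means too in PE-treated MRL mice. The lists of these genes were also chosen with earlier results of these data known, so their direction is not independent evidence. Of 29 further white adipocyte genes, 28 were higher, with a median difference of 2.84, and 2 were called. These were Plin4 (2.26, adjusted p = 0.0386), a lipid droplet coat protein, and Sncg (4.31, adjusted p = 0.0183). Of 8 partners of Pnpla2 and Lipe in lipolysis, 7 were higher and Abhd5, the co-activator of ATGL, was called (0.95, adjusted p = 0.0288). Of 10 brown and beige adipocyte genes, 6 were higher and Cidea was called (5.99, adjusted p = 0.0372). Of 12 partners and receptors of the secreted products, 7 were higher and 0 called, with Adipor2 at 1.58 (adjusted p = 0.075) and the leptin receptor Lepr at 0.17 (adjusted p = 0.875). Of 12 further transcription regulators of adipogenesis, 9 were higher and 0 called, and of 6 inhibitors of adipogenesis 2 were higher and 0 called. The 8 markers of fibro-adipogenic progenitors split evenly, 4 higher and 4 lower, with 0 called. Mammary epithelial markers, which mark fat pads that carry gland, were lower in 8 of 8 (0 called), and their sum ran from 2.88 to 315 CPM over the 24 libraries. All of them but Krt8 and Krt18 lay under the level of 3 counts in at least 1 library. Without library 2, 10.6% of all genes were called higher. These included 24 of the 29 white adipocyte genes, 5 of the 8 lipolysis partners and 7 of the 12 regulators. Plin1, Mgll and Adrb3 count in both of the first 2 lists. In the same fit the inhibitor Gata2 was called higher, and 1 lipolysis partner and the progenitor marker Dcn lower. Of the partners and receptors 1 was called higher and 2 lower, and of the brown and beige genes 4 higher and 1 lower. Plin4 differed by 3.29 and Cidea by 7.60. Without libraries 1 and 3, 23 of the 29 white adipocyte genes had higher means. The differences were then 0.19 for Plin4, 2.11 for Sncg, 0.47 for Abhd5 and 2.75 for Cidea.

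In uninjured muscle the means lay the other way, without a call. All 10 members had lower means in uninjured MRL than B6 mice, with differences from -2.23 (Cfd) to -0.09 (Lep) on the log2 scale, with a median of -1.09, but 0 were called (adjusted p 0.466 to 0.993) and the groups overlapped for all 10, while 21.8% of all genes did not overlap. Among all genes 2.6% were called there. Mammary epithelial markers, most of them under 3 counts in some of the 24 libraries, had lower means in 8 of 8 (median -2.18). Their sums were 84.6, 2.88 and 3.77 CPM in MRL and 72.7 to 110 CPM in B6 libraries. Lower means were also seen for 11 of 12 macrophage, 9 of 9 endothelial and 4 of 4 erythroid markers. The part of these cell types in the members' values was not tested. Of these lists the globin gene Hba-a2 alone was called (-4.36, adjusted p = 0.00107). In saline-treated muscle 8 of 10 had higher means in MRL mice, with a median of 0.50, and 0 members were called, against 2.51% of all genes. Fabp4 and Pnpla2 did not overlap between the strains, nor did 15.2% of all genes. The median ran from -0.05 to 0.69 with 1 library left out. Angiotensinogen (Agt), another product of adipocytes, was lower in MRL mice there (-1.55, adjusted p = 0.0452). In ECM-treated muscle the median was 0.15 and 0 members were called, against 2.66% of all genes. Its sign was not stable, at -0.10 with equal totals and -0.48 to 1.24 with 1 library left out. Dpp4, a marker of adipocyte progenitors, was higher (1.66, adjusted p = 0.0356) and Fabp5 lower (-2.12, adjusted p = 0.043) in MRL mice. Library 3 of ECM-treated B6 mice and library 1 of ECM-treated MRL mice stood above their groups, with member sums of 2572 and 1686 CPM against 351 to 638 CPM in the other 4.

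Within B6 mice, the control injury came with lower means of all 10 members than in uninjured muscle, with a median difference of -1.67 (-0.79 with library weights). All saline-treated libraries lay below all uninjured ones for 7 members (all but Cebpa, Lep and Acvr1c), as for 7.34% of all genes. No member was called, and neither was any other gene (0%) by limma. At an unadjusted p under 0.05 there were 1751 genes in both directions, and 856 genes, 6.05%, were lower at an unadjusted p under 0.05. Fabp4 was the only member among these (-1.88, SE 0.85, unadjusted p = 0.0388). Macrophage markers had higher means after injury in 12 of 12 (median 1.01), and lower means were seen for 4 of 4 erythroid (median -2.25), 8 of 9 endothelial and 6 of 8 mammary epithelial markers, with 0 called. Their part in the members' values was not tested. In MRL mice the same comparison had a median of -0.08, with 0 members and 0% of all genes called by limma (439 genes at an unadjusted p under 0.05). ECM against saline gave medians of -0.24 in B6 mice (0 members, 0.0283% of all genes called) and -0.26 in MRL mice (0 members, 0.00706% of all genes).

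PE against saline gave medians of opposite sign in the strains. In B6 mice 5.97% of all genes were called but 0 members, and the median difference was -0.96. Adipoq differed by -1.24 (adjusted p = 0.529), Lep by -1.46 (adjusted p = 0.494) and Cfd by -1.31 (adjusted p = 0.465), while Pparg (0.47) and Cebpa (0.99) had higher means. The 6 lipid-associated macrophage markers were all called higher there, at 6.74 for Gpnmb, 5.99 for Spp1, 5.34 for Trem2, 4.98 for Lgals3, 3.61 for Fabp5 and 3.11 for Cd9 on the log2 scale. Of 12 macrophage markers 8 were called higher, such as Cd14 (3.73), Cd68 (4.52), Itgam (4.51), Lyz2 (3.65), Emr1 (2.88) and Ptprc (3.36). Cap1, the adenylyl cyclase-associated protein named as a resistin receptor, was called too (1.71, adjusted p = 0.0381). In MRL mice all 10 members had higher means in PE, with a median of 1.73, and 0 members and 0% of all genes were called by limma (3298 genes at an unadjusted p under 0.05). Pparg (2.00, adjusted p = 0.14) and Cebpa (2.30, adjusted p = 0.148) did not overlap between these groups, as 10.8% of all genes did not in that direction. With library weights all 10 were called, among 12% of all genes called higher. With library 2 as the only PE library, 8 members had a lower mean than in saline-treated mice (Adipoq, -0.56) and 0 were called, although that fit called 35.9% of all genes. Without library 2 the median was 2.77, with 0 members and 0% of all genes called by limma (1940 genes at an unadjusted p under 0.05).

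The difference between the strains in their response was tested as an interaction. For PE against saline, the members' values were all positive with a median of 2.51, but 0 members and 0% of all genes were called (limma, adjusted p of each member 0.988). At an unadjusted p under 0.05, 0 members and 614 genes passed. Without library 2 of PE-treated MRL mice, Pnpla2 was the only member called (2.59, SE 0.68, adjusted p = 0.0334), among 4.41% of all genes. For ECM against saline the median was -0.20, with 0 members and 0% of all genes called by limma (320 genes at an unadjusted p under 0.05). The contrast of PE with uninjured muscle was added after the data were seen. There the median was 4.01, all 10 members had a positive value with an unadjusted p under 0.05, as had 7.23% of all genes, and 0 members and 0.0212% of all genes were called (members' adjusted p 0.298 to 0.370). Without library 2 of PE-treated MRL mice, 8 members were called, among 4.34% of all genes, with Adipoq at 5.71 (SE 1.59, adjusted p = 0.0293), and Pparg and Cebpa again were not.

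Because the members varied together, a further comparison, added after the data were seen, asked which members departed from Adipoq. In every library the level of Cfd relative to Adipoq (the difference of the log2 CPM values) was computed. In B6 mice it was 1.07, 1.07 and 1.14 in uninjured, 1.34, 1.06 and 1.68 in saline-treated, 1.11, 1.56 and 0.96 in ECM-treated and 1.25, 1.15 and 1.48 in PE-treated muscle. In MRL mice it was 0.37, 0.39 and 0.28 in uninjured, 0.80, 0.65 and 0.11 in saline-treated, -0.44, 0.78 and 0.75 in ECM-treated and 0.46, 0.69 and 0.47 in PE-treated muscle. All 12 MRL libraries thus lay below all 12 B6 libraries, whatever the treatment, as for 8 genes or 0.0565% of those tested. Reads of both strains were assigned to transcripts of the B6 reference, and its part in this difference was not tested. With Adipoq as a covariate in the fit, Cfd was lower in MRL mice by a mean difference of -0.74 over the 4 treatments (SE 0.12, 1.67-fold lower, adjusted p = 0.000338), and 6.92% of all genes were called lower. Leaving out each of the 24 libraries in turn kept the call, with values from -0.79 to -0.68, and so did Lipe (-1.07) or Plin1 (-1.14) in place of Adipoq.

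Lep went the other way. Relative to Adipoq, it was at -2.47, -3.36 and -3.42 in uninjured, -3.00, -2.00 and -3.99 in saline-treated, -1.12, -2.49 and -2.90 in ECM-treated and -3.26, -3.10 and -3.29 in PE-treated B6 mice. In MRL mice it was at -1.73, -1.59 and -1.76 in uninjured, -1.81, -1.77 and -1.45 in saline-treated, -0.51, -1.88 and -2.10 in ECM-treated and -1.58, -1.62 and -1.25 in PE-treated muscle. Over all treatments the strains overlapped, with B6 libraries up to -1.12 and MRL libraries from -2.10. Within a treatment the strains did not overlap in uninjured, saline-treated or PE-treated muscle. In ECM-treated muscle library 1 of B6 mice lay above 2 of the 3 MRL libraries. For ratios to Adipoq, the share of all genes without overlap within a treatment was not computed. For the levels themselves, a different measure, it was 21.8%, 15.2% and 17.5% in uninjured, saline-treated and PE-treated muscle. The lack of overlap in Lep is therefore a description only. At equal Adipoq, Lep was 2.41-fold higher in MRL mice (log2 difference 1.27, SE 0.24, adjusted p = 0.00141), and 6.64% of all genes were called higher. Each of the 24 libraries could be left out with Lep still called, but with Lipe as the covariate the adjusted p was 0.0631 (difference 0.94) and with Plin1 it was 0.108 (0.77). Library 2 of PE-treated MRL mice, at 0.69 for Cfd and -1.62 for Lep, lay within the range of the other MRL libraries. Of the other 7 members 0 were called, with Lipe nearest (0.35, adjusted p = 0.0669). As for Cfd, the part of the B6 reference in the Lep difference was not tested.

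**Figure D4:**
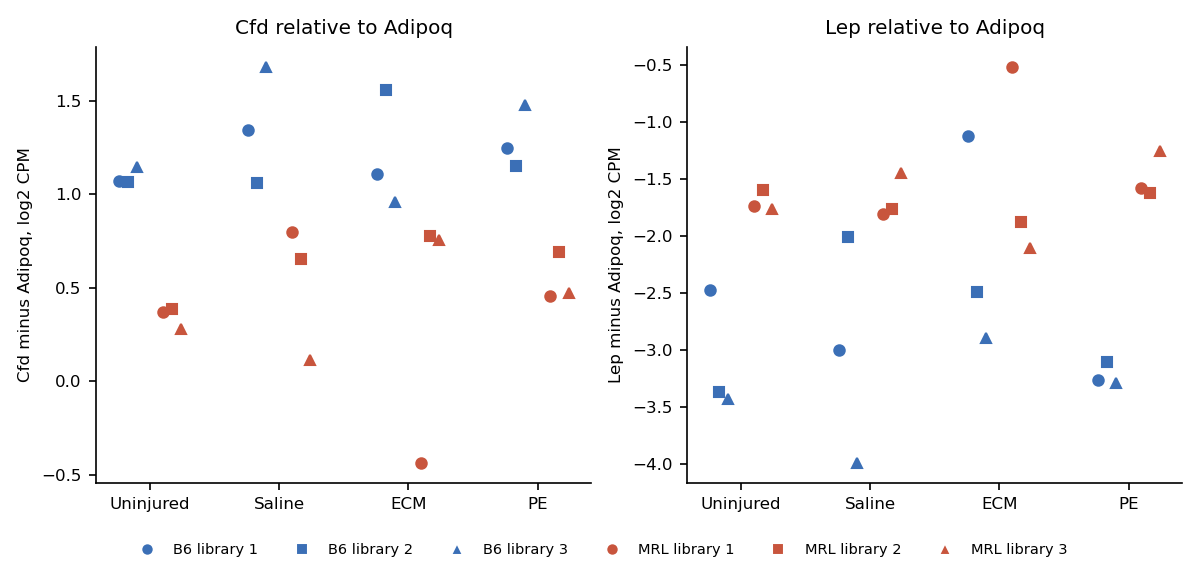
Level of Cfd (left) and Lep (right) minus that of Adipoq in the same library, in log2 CPM, by treatment, where blue is B6, red is MRL and marker shape is the library number. For Cfd the 12 B6 values (0.96 to 1.68) lie above the 12 MRL values (-0.44 to 0.80), and for Lep the MRL values lie higher, with overlap only in ECM when compared within a treatment.

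Pparg and Cebpa departed from Adipoq after PE. Cebpa minus Adipoq was 2.21, 1.68 and 0.81 in PE-treated B6 mice and -0.50, -0.92 and -0.58 after saline. In PE-treated MRL mice it was -0.61, 1.64 and -0.30, and after saline -0.56, 0.11 and -0.59. Library 2 alone among the PE-treated MRL libraries had a ratio above 1, and it also had the highest macrophage marker sums of the 3. For Pparg the PE-treated values were -0.70, -1.93 and -1.72 in B6 and -3.92, -1.38 and -3.30 in MRL mice, and the saline values lay between -3.59 and -2.53 in both strains. At equal Adipoq, Cebpa was 3.62-fold higher after PE than after saline in B6 mice (1.86, SE 0.36, adjusted p = 0.0264) and Pparg 2.28-fold higher (1.19, SE 0.32, adjusted p = 0.0456), among 3.61% of all genes called higher. Both calls depended on the libraries used. Cebpa lost its call without B6 saline libraries 1, 2 or 3 or B6 PE libraries 1 or 2 (adjusted p up to 0.258), and Pparg without 18 of the 24 libraries (up to 0.298) and with Lipe (0.076) or Plin1 (0.118) as the covariate. In MRL mice neither was called (Pparg 1.01, Cebpa 1.10, adjusted p = 0.185 for each). The part of macrophage RNA in these ratios was not tested.

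**Figure D5:**
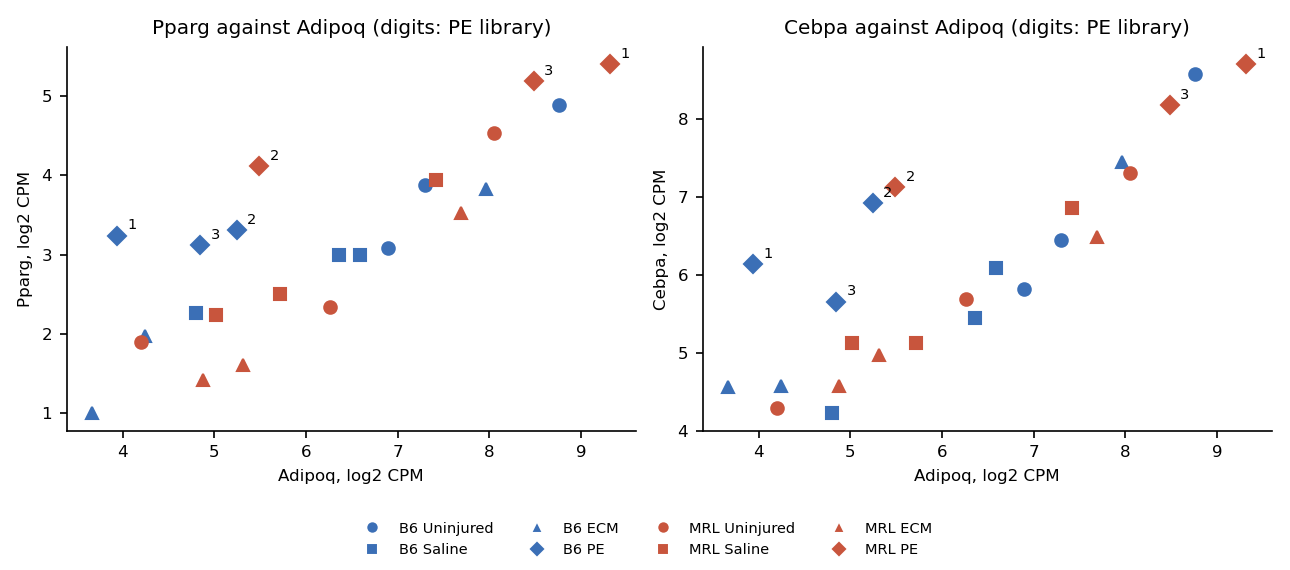
Pparg (left) and Cebpa (right) against Adipoq in the 24 libraries, all in log2 CPM, with digits giving the number of PE libraries. The 3 PE-treated B6 libraries and library 2 of PE-treated MRL mice lie above the line of points that the other libraries form, while libraries 1 and 3 of PE-treated MRL mice lie at its upper end.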

How the data were processed

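Quadriceps RNA (polyA libraries with ERCC spike-in) was sequenced in 24 libraries, 3 in each of 8 groups. The authors quantified transcripts with kallisto against Ensembl cDNA of GRCm39, a C57BL/6 reference used for both strains, summarized them with tximport (lengthScaledTPM), kept genes above 1 CPM in at least 3 libraries, applied TMM scaling in edgeR and deposited the result as log2 CPM. 1 row without a symbol (at most 0.0189% of a library) was left out. The values are not counts, so limma 3.58.1 in R 4.3.3 was fitted to the deposited log2 CPM of 14159 genes, with 1 coefficient per group, trended variances, 2-sided tests and Benjamini-Hochberg adjustment. The fit was tested on simulated data. Summed CPM were taken after removal of the prior (0.0795 CPM). The mean effective library size was 25149678 counts. Depth and 3 libraries per group limit the precision. Correlations used 100000 permutations of all 24 libraries regardless of group (numpy, Python 3.11.15).

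The members and gene lists were chosen with earlier results of these data known. Every member was named in every library, of the other lists those called or defining, and the 8 genes most like Adipoq. The result of 1 listed gene is not reported here. Adipor2, Lepr and the genes of the departures from Adipoq were named after their values were seen. Residuals of libraries with the same number correlated at 0.105, 0.532 and 0.439 between the strains in PE, the only one of 10 comparisons in which all 3 passed 0.1. Alternatives were log2(CPM + 1), a filter at a mean log2 CPM of 1, equal totals, library weights (gene-by-gene algorithm), only the compared groups, a replicate block, and each library left out. Those added after seeing the data were the fits with Adipoq, Lipe or Plin1 as a covariate, the interaction of PE with uninjured muscle, the removal of PE-treated MRL libraries 1 and 3 (for the other lists also of library 2), and other scales for the likeness to Adipoq. Of the lists, Trarg1 and Adgre1 were found under the older symbols Tusc5 and Emr1, and 8 listed genes were not analysed here.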

Additional observations from a re-analysis of the deposited data

How the results depend on the processing

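Between the strains in PE, 0 members were called with the filter on low values, with only the compared groups or with the replicate block. With library weights 10 were called (45.7% of all genes), and between 0 and 8 when 1 library was left out. Library weights also called 4 members for PE against saline in B6 mice (24.7% of all genes) and 10 in MRL mice (19.9%), 8 for the interaction of PE with saline (13.5%, and 0 to 1 members with 1 library left out) and 10 for that with uninjured muscle (21.2%, and 0 to 8 members). Only the compared groups called 1 member for PE against saline in B6 mice (4.99% of all genes). At equal Adipoq, the strain comparison called 1 of 9 members with Lipe or Plin1 as the covariate (11.8% and 10.4% of all genes), 4 with library weights (46.2%) and 2 to 4 with 1 library left out, and PE against saline in B6 mice called 1 with Lipe or Plin1 (4.27% and 4.47%) and 0 to 2 with 1 library left out.

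The median difference of the members moved with library weights to -0.47 between strains in saline, 4.0 in PE, -1.99 and 3.09 for PE against saline in B6 and MRL mice, and 5.04, 1.20 and 5.33 for the interactions of PE with saline, ECM with saline and PE with uninjured muscle. Without libraries 1 and 3 of PE-treated MRL mice it was 0.83 between strains in PE, -0.53 for PE against saline in MRL mice, and 0.54 and 2.00 for the interactions of PE with saline and uninjured muscle. With 1 library left out, the interaction of PE with saline ranged from 1.80 to 3.66 and that of ECM with saline from -0.86 to 0.88. The other medians ran from -1.93 to -0.47 between strains in uninjured muscle and 1.84 to 3.64 in PE, from -1.99 to -1.13 for saline against uninjured muscle in B6 and -0.90 to 0.74 in MRL mice, from -1.26 to 0.41 and -0.93 to 0.24 for ECM against saline, and from -1.47 to -0.74 and 0.97 to 2.77 for PE against saline. Library weights gave -0.94 and 0.18 for ECM against saline in B6 and MRL mice and 0.63 between strains in ECM, and equal totals gave 0.06 for saline against uninjured muscle in MRL mice. Without libraries 1 and 3 of PE-treated MRL mice 8 members turned negative for PE against saline in MRL mice (Adipoq -0.56, Fabp4 -0.54, Lipe -0.79, Lep -0.50, Retn -0.51, Cfd -0.39, Pnpla2 -1.34, Acvr1c -0.69) and 2 for the interaction of PE with saline (Fabp4 -0.0622, Pnpla2 -0.42), with none called before or after. Over all genes, the strain comparison in PE called 474, against 6477 with library weights, 113 with only the compared groups, 242 with the filter on low values and 3490 without library 2 of PE-treated MRL mice (234 to 316 without any other PE library). The causes were not tested. The remaining counts of called members stayed within 1.5 times, and the replicate block changed no other call of a member. Equal totals shifted the median of all genes by -0.25 to 0.26 and turned the sign of no member in the PE comparisons or in saline against uninjured B6 mice. Same-number correlations in the other 9 comparisons ran from -0.295 to 0.376, and the members' counts there were the same with the block.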
